A study of Mus musculus with 4 samples.

Results

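The genes examined encode the core of transforming growth factor beta (TGF-beta) signalling: the ligands Tgfb1, Tgfb2 and Tgfb3, the receptors Tgfbr1 and Tgfbr2, the receptor-regulated Smads Smad2 and Smad3, the common mediator Smad4, and the inhibitory Smads Smad6 and Smad7. They were followed through every probe set that the platform annotation paired with exactly 1 of these symbols, which gave 24 of the 45101 probe sets on the array, for 10 of 18193 named genes. A probe set is a group of short probes read as 1 signal for a transcript. The RNA came from 4T1, a mouse mammary carcinoma cell line, divided into cells positive and cells negative for CD44v8-10, a variant-exon isoform of the hyaluronan receptor CD44. There were 2 CD44v8-10-positive and 2 CD44v8-10-negative samples, each hybridised to 1 one-colour Affymetrix array. All 4 samples came from cultures in medium with bovine serum kept in normoxia. The labels name no added TGF-beta and no inhibitor in either group. The cells were picked by hand under a microscope, per the labels, which do not say how CD44v8-10 was read or whether the replicates were separate cultures. The p-values therefore reflect the variation among these 4 arrays alone, which can be technical.

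TGF-beta ligands are secreted in a latent form and, once released, bind the type II receptor Tgfbr2, which recruits and phosphorylates the type I receptor Tgfbr1. Tgfbr1 phosphorylates Smad2 and Smad3, which join Smad4, enter the nucleus and regulate transcription, while Smad6 and Smad7 block the receptors and are themselves induced by the pathway. In mammary carcinoma cells the pathway is best known for slowing proliferation and for driving the epithelial-to-mesenchymal transition. Arrays measure mRNA, so latent ligand, receptor activity and Smad phosphorylation were not measured.

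The mRNA of the TGF-beta ligands, receptors and Smads did not differ detectably between CD44v8-10-positive and negative 4T1 cells. In such bulk RNA, fewer cells carrying a transcript and less of it per cell cannot be told apart. Of the 24 probe sets, 22 were bright enough to be tested and 0 had an adjusted p under 0.05 (two-sided limma test, Benjamini-Hochberg adjustment across 27022 probe sets). At an unadjusted p under 0.05 the count was also 0 of 22, where 4.61% of all tested probe sets passed. Over the whole array 9 probe sets were called, or 0.0333%, all higher in positive cells. The log2 differences of the 22 probe sets ran from -0.31 to 0.38 with a median of -0.043, with 8 above 0, beside a median of 0.00010 and 50% above 0 over all tested probe sets. In 19 of 22 the 95% interval lay within a 2-fold difference in either direction, as it did in 68.7% of all tested probe sets.

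The deposited arrays were not equally bright, with trimmed mean intensities of 237 and 220 for the positive and 196 and 345 for the negative replicates, so signals below are quantile normalised. The number of called probe sets depended on single arrays: it was 28 without positive replicate 1 and 1 without positive replicate 2. It split into 12 higher and 5 lower with arrays centred on their medians, and into 3 higher and 1 lower with no scaling between arrays, where the main split was 9 to 0. Esrp1, an RNA-binding protein that promotes inclusion of Cd44 variant exons, averaged 1357 in the positive and 47.5 in the negative arrays. Its log2 difference was 4.48 ± 0.28 (SE, limma adjusted p 0.00049). Esrp1 was chosen with earlier results of these data known, so it is no independent check on the labels. The 3 tested probe sets of Cd44 had log2 differences of 0.11, 0.14 and 0.40, and the exons they cover were not analysed here. The 8 markers of the epithelial carcinoma line were all above the filter, and 3 of them, Krt14, Cldn3 and Cldn7, were called higher in positive cells. Summed signals of 9 fibroblast markers were 161 to 179 in positive and 197 to 216 in negative samples. Of the 9, 6 were below the filter, Col1a1, Col3a1 and Dcn among them, and 3 were tested: Pdgfra, with 47.0 and 33.6 against 108 and 76.6 and a log2 difference of -0.94 (limma, unadjusted p 0.0122, adjusted p 0.959), Pdpn at 0.37 and Col1a2 at 0.045. Summed signals of 8 macrophage markers were 499.75 and 636 in positive and 395 and 439 in negative samples. Ptprc, Tyrobp and Itgam were below the filter, and the 5 tested had log2 differences of 0.51 for Csf1r, 0.51 for Adgre1, 0.37 for Cd14, 0.34 for Cd68 and -0.0057 for Laptm5, none at an unadjusted p under 0.05. Endothelial markers summed to 95.7 and 122 against 69.1 and 74.2, but 5 of the 6 were below the filter, and the tested one, Cldn5, had a log2 difference of -0.45. Platelet markers summed to 236 and 251 against 143 and 201, with Pf4 at 0.51 and Itga2b at 0.39 tested, and 0 of 4 lymphocyte markers on the array were above the filter. The part of these markers in the results that follow was not tested.

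The promoter window of Smad6 is shown here as the one that held the Smad-binding sequence GTCTAGAC among those searched for these genes. Smad6 transcription is itself known to be induced by Smads. The RefSeq promoter window of Smad6 covers 300 bases of GRCm38.p6, from 250 before to 50 after a transcript start at 64022059, at chr9:64022010-64022309 on the minus strand. The capitals mark the palindromic Smad-binding element GTCTAGAC, at bases 247 to 254 of the window, which span that start. The gene as annotated begins further upstream, at 64022085, so the element lies inside it.
Smad6: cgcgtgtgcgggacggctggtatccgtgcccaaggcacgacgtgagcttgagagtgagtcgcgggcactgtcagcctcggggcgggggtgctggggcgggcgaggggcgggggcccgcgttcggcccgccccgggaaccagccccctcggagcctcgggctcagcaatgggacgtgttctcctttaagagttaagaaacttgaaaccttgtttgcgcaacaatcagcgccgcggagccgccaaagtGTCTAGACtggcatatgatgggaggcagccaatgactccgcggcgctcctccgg
This sequence, which reads the same on both strands, was present in 1 of the 7 promoter windows searched for these genes. Those windows covered 6 of the 10 genes. No window of Tgfb3, Smad2, Smad4 or Smad7 was searched, so whether theirs hold the element was not examined. Among all windows in the table the element was present in 70 of 32851 (0.213%), a count that left out no chromosome. The shorter CAGA box, CAGACA, was searched on both strands. Among the 6 genes searched, it was found in the windows of Tgfb2 and Tgfbr1 and not in that of Smad6. It occurred in 21% of all windows. A match of letters is no evidence of binding.

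**Figure D1:**
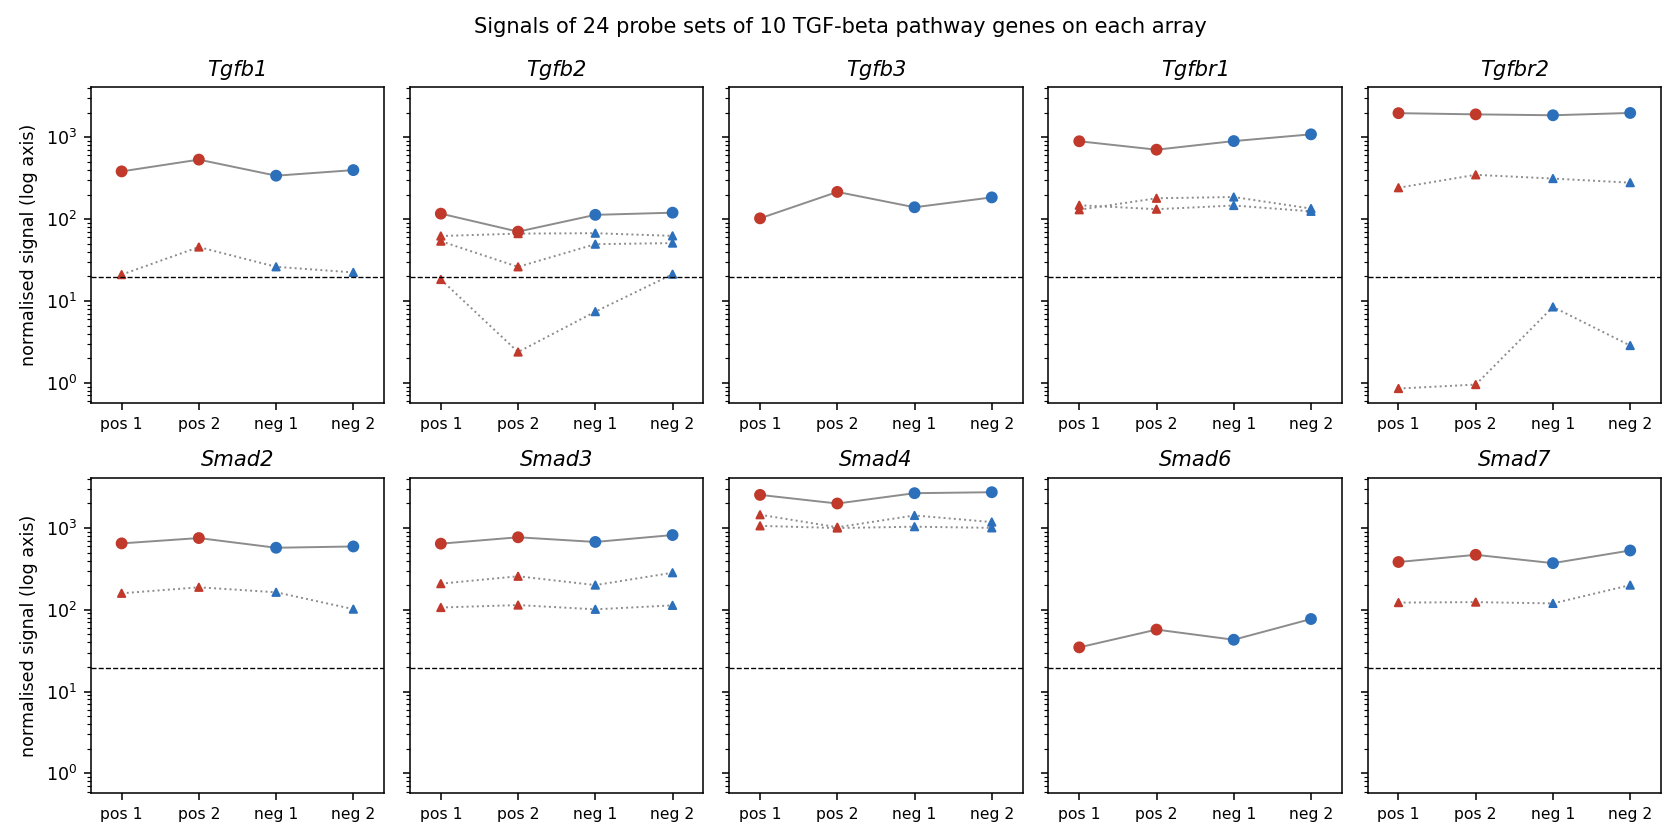
Quantile-normalised signal (log axis) of the 24 probe sets of the 10 genes on each array, positive arrays in red and negative arrays in blue. Circles with solid lines are the brightest probe set of each gene, triangles with dotted lines the others, and the dashed line is the filter level of 19.4. Both positive circles lie above both negative circles for Smad2 alone, and both lie below for Tgfbr1 and Smad4.

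Among the ligands, Tgfb1 was the one whose probe sets both had a positive difference. Tgfb1 (chromosome 7, 25687002 to 25705077, GRCm38.p6) encodes the prototype ligand. Its brightest probe set, 1420653_at, had normalised signals of 384 and 534 in positive and 340 and 398 in negative cells. The positive arrays stood on either side of the higher negative array, so the groups overlapped. The log2 difference, on the log2(signal + 16) scale used throughout, was 0.29 ± 0.24 (SE), or 1.22-fold, with a 95% interval of -0.25 to 0.83 (limma adjusted p 0.959). The log2 difference was 0.059 without positive replicate 2 and ran up to 0.52 as other single arrays were left out. The second Tgfb1 probe set was dim, at 21.0 and 45.6 in positive and 26.1 and 22.3 in negative cells, and again only positive replicate 2 stood above both negative arrays.

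Tgfb2 (chromosome 1, 186622787 to 186709697), a ligand known for roles in development and in mesenchymal transition, was measured by 4 probe sets, of which 3 were tested. The brightest, 1450922_a_at, gave 117 and 70.4 in positive and 113 and 120.0 in negative cells. Only positive replicate 2 was apart from the rest, and its log2 difference of -0.31 ± 0.29 (SE) became 0.0043 without it. The probe set 1423250_a_at, annotated to the same cDNA sequence, showed the same single low array, with 53.8 and 26.1 against 49.4 and 51.0. The third, 1450923_at, also from that cDNA, had nearly equal signals of 62.2 and 66.6 in positive and 67.4 and 62.5 in negative cells, with a log2 difference of -0.0090. These 3 probe sets did not show 1 common pattern over the 4 arrays, and which transcripts each reads was not analysed here. The fourth probe set was below the filter, with signals of 2.38 to 21.2.

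Tgfb3 (chromosome 12, 86056743 to 86079041), the third ligand, had 1 probe set and the widest gap between positive replicates. Its signals were 102 and 215 in positive and 140 and 185 in negative cells, so both negative arrays lay between the 2 positive arrays. The means were 159 ± 79.8 in positive and 162 ± 31.7 in negative cells (SD, n = 2 each). The log2 difference was -0.095 ± 0.33 (SE), against a gap of 0.97 between the positive replicates, and it ran from -0.58 to 0.39 as single arrays were left out.

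Of the receptors, Tgfbr2 had among the most closely bounded values. Tgfbr2 (chromosome 9, 116087695 to 116175363) is the kinase that binds the ligand first. Its brightest probe set, 1426397_at, gave 1976 and 1909.8 in positive and 1862 and 1986 in negative cells, means of 1943 ± 46.5 and 1924 ± 87.8 (SD, n = 2 each). The log2 difference was 0.014, with a 95% interval of -0.37 to 0.40, which corresponds to 0.78-fold to 1.32-fold (limma adjusted p 0.997). The second probe set gave -0.024 ± 0.25 (SE), with overlapping signals of 242 to 348 in positive and 279 to 313 in negative cells. The third was not tested, since its signals, 0.85 and 0.95 in positive and 8.45 and 2.85 in negative cells, were all below the filter.

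Tgfbr1 (chromosome 4, 47353222 to 47414926), the kinase that phosphorylates Smad2 and Smad3, had its lowest signal in positive replicate 2 in its brightest probe set. That probe set, 1420895_at, gave 896 and 707 in positive and 900.5 and 1088 in negative cells. Both positive arrays lay below both negative arrays, although replicate 1 of each group gave nearly the same signal. The log2 difference was -0.31 ± 0.22 (SE), with a 95% interval of -0.79 to 0.17 (limma adjusted p 0.959). It was -0.14 without positive replicate 2 and ran down to -0.48 as other single arrays were left out. The 2 other Tgfbr1 probe sets, from the same cDNA sequence, had log2 differences of -0.046 and 0.044 and overlapping groups.

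The receptor-regulated Smads carry the signal from the receptor. Smad2 (chromosome 18, 76241090 to 76311748) had a positive difference in both probe sets. The brightest, 1420634_a_at, gave 647 and 752 in positive and 573 and 594 in negative cells, so that the groups were separate. Its log2 difference was 0.25 ± 0.21 (SE), or 1.19-fold, with a 95% interval of -0.21 to 0.72 (limma adjusted p 0.959). The other Smad2 probe set gave 159 and 188 in positive and 164 and 102 in negative cells. It had the largest log2 difference of the 22, at 0.38 ± 0.28 (SE). Only negative replicate 2 lay apart, and the value was 0.074 without it and up to 0.68 as other single arrays were left out.

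Smad3 (chromosome 9, 63646766 to 63757994), which like Smad2 is phosphorylated by the type I receptor, was almost equal in the groups in all 3 probe sets. The brightest, 1454960_at, gave 642 and 769 in positive and 674 and 819 in negative cells. The groups interleaved, with replicate 2 above replicate 1 in each. The 3 log2 differences were -0.078, -0.040 and 0.037, and the 3 intervals together covered -0.61 to 0.60.

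Smad4 (chromosome 18, 73634790 to 73703791), the partner that receptor-regulated Smads share, gave the lowest unadjusted p of the 22 probe sets. Its brightest probe set, 1422487_at, had signals of 2536 and 1989 in positive and 2660.4 and 2734 in negative cells. Both positive arrays lay below both negative arrays, and positive replicate 2 stood furthest from the others. The log2 difference was -0.26 ± 0.18 (SE), or 1.20-fold higher in negative cells, with a 95% interval of -0.66 to 0.14 (limma, unadjusted p 0.175, adjusted p 0.959). Without positive replicate 2 it was -0.088, and it ran down to -0.44 as other single arrays were left out. The other 2 Smad4 probe sets, from the same cDNA sequence, gave -0.089 ± 0.22 and 0.014 ± 0.19 (SE), with overlapping groups.

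The inhibitory Smads, which are transcribed in response to the pathway, were highest in negative replicate 2. Smad6 (chromosome 9, 63953076 to 64022085), whose promoter is printed above, had a dim probe set, 1422771_at, with signals of 34.7 and 57.2 in positive and 43.0 and 77.0 in negative cells. The groups interleaved, and the log2 difference of -0.28 ± 0.35 (SE) was smaller than the gaps of 0.53 and 0.66 between replicates of the positive and negative groups. Its 95% interval, -1.07 to 0.50, did not exclude a 2-fold lower level in positive cells. Smad7 (chromosome 18, 75367365 to 75395935), which recruits ubiquitin ligases to the activated receptor, gave 383.5 and 469 in positive and 371 and 530.2 in negative cells with its brightest probe set, 1423389_at. Those groups interleaved as well, with a log2 difference of -0.063 ± 0.25 (SE). The second Smad7 probe set gave 122 and 124 in positive and 119.5 and 199.95 in negative cells, a log2 difference of -0.30 ± 0.28 (SE). In all 3 probe sets of these genes negative replicate 2 was the brightest array, as in 9 of the 22 and in 25.2% of all tested probe sets, and without it their log2 differences were 0.046, 0.18 and 0.038.

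**Figure D2:**
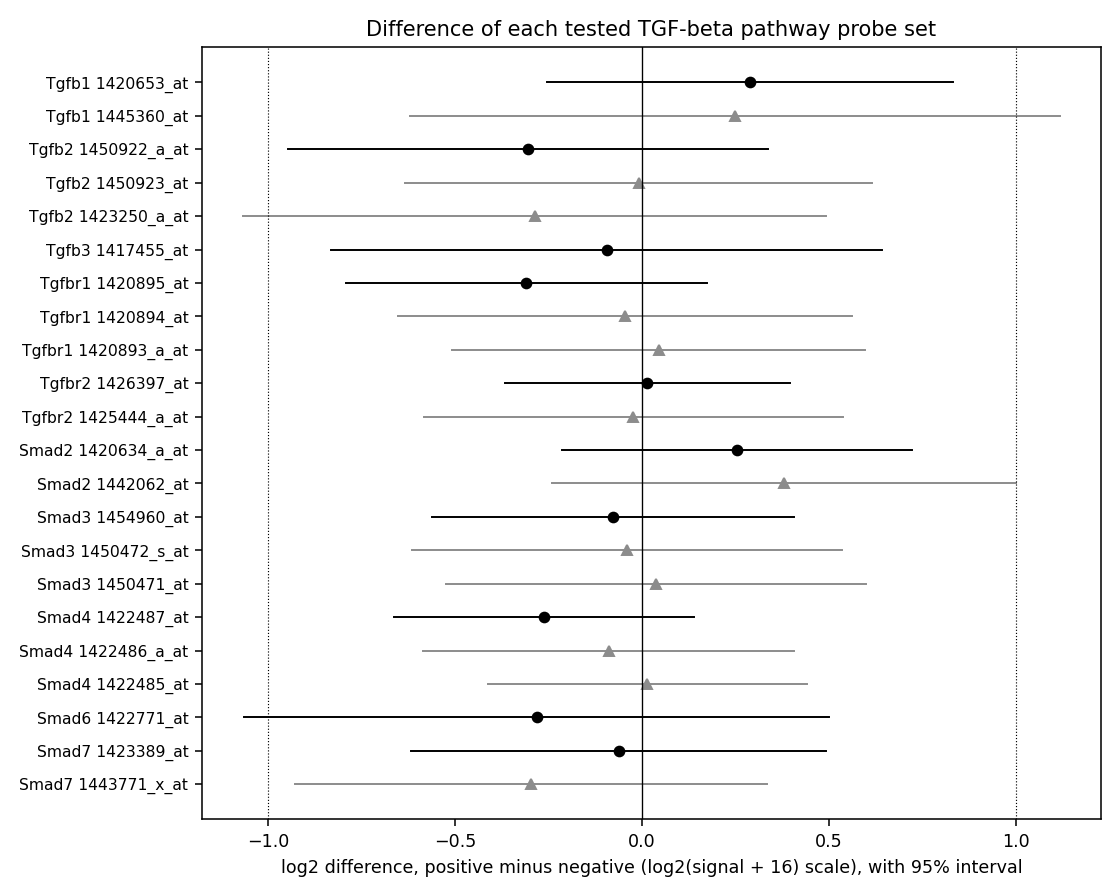
Log2 difference, positive minus negative, of the 22 tested probe sets with 95% intervals from limma. Black circles are the brightest probe set of each gene and grey triangles the others; dotted lines mark a 2-fold difference. Every interval includes 0, and those of 1 probe set each of Tgfb1, Tgfb2 and Smad6 extend past 2-fold.

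In the median, the replicates lay further apart than the groups did. A gap between 2 single arrays varies more than a difference between 2 means, so these measures are not alike. In 19 of 22 probe sets the size of the log2 difference was below the gap between the positive replicates, as it was in 63.6% of all tested probe sets. The median gap was 0.31 between the positive and 0.21 between the negative replicates, beside a median size of the log2 difference of 0.092. Over all tested probe sets these medians were 0.28, 0.25 and 0.19. The groups did not overlap in 3 of 22 probe sets, 1 of Smad2 with positive cells above and 1 each of Tgfbr1 and Smad4 with negative cells above, where 33.2% of all tested probe sets did not overlap. In the deposited intensities, before scaling, 0 of the 22 were separate, but the share over all probe sets was not counted. The 2 negative arrays were then the dimmest and the brightest by trimmed mean, so this count is no result about these genes. Positive replicate 2 was the highest or the lowest array in 13 of the 22 probe sets, and in 64.1% of all those tested.

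By the brightest probe set, 3 of the 10 genes had a positive and 7 a negative log2 difference, from -0.31 for Tgfbr1 to 0.29 for Tgfb1. Taken over these 10 probe sets, the 95% intervals reached from 2.09-fold higher in negative cells, for Smad6, to 1.78-fold higher in positive cells, for Tgfb1. The 10 probe sets measure different transcripts with different probes, so their signals were not ranked against each other. The genes whose centred log2 signals over the 4 arrays lay closest to those of Smad4 were Atp7a, Bach1 and Zc3h14, at root mean square distances of 0.0068, 0.0072 and 0.0095. They were picked from 11956 genes, and each profile holds only 4 values.

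Around this core, 122 further genes of the pathway were followed, of which 116 were paired with a probe set and 88 were above the filter. Each gene stood by its brightest probe set. One of the 88 was called, Postn, higher in positive cells, where 6 of 11956 genes (0.0502%) were called in all. At an unadjusted p under 0.05, 8 of the 88 were higher and 5 lower, where 2.33% and 1.38% of all genes were. Of the 88, 44 lay above 0, with a median of 0.0026, beside 54.3% and a median of 0.028 over all genes. The lists were chosen with earlier results of these data known, Postn among them, so these counts are a description.

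Ligand processing and activation held 8 tested genes, none called, 2 higher at an unadjusted p under 0.05, with a median log2 difference of 0.014. Thrombospondin 1, Thbs1, a matrix protein that can release TGF-beta from its latent complex, had signals of 2802 and 2569 in positive and 1780 and 1493 in negative cells. The groups were separate, and its log2 difference was 0.71 ± 0.18 (SE; limma, unadjusted p 0.00249, adjusted p 0.935). A second Thbs1 probe set gave 0.72. Itgb6, the beta subunit of the epithelial integrin that activates latent TGF-beta, had signals of 87.1 and 74.8 against 44.3 and 30.5 and a log2 difference of 0.87 ± 0.31 (SE; adjusted p 0.959). Its second probe set was below the filter. Itgav, the alpha subunit that pairs with it, had -0.24 ± 0.17 (SE) by its brightest probe set, and 0.10 and 0.45 by its 2 other tested ones. Neither Thbs1 nor Itgb6 passed the threshold in any alternative, the lowest limma adjusted p being 0.236 for Thbs1 and 0.408 for Itgb6.

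Accessory receptors and adaptors had 8 tested genes, none called and 1 lower at an unadjusted p under 0.05. Dab2, an endocytic adaptor that links TGF-beta receptors to Smads, had signals of 164 and 233.5 in positive and 274 and 339 in negative cells, with a log2 difference of -0.60 ± 0.26 (SE; limma adjusted p 0.959). Its 3 other probe sets were also below 0, at -0.45 to -1.25. The receptor-binding immunophilin Fkbp1a had -0.16 by its brightest probe set and 0.011 to 0.030 by its 3 other tested ones. The receptor-associated protein Strap had -0.0066, and -0.044 and -0.20 by its other probe sets. Among Smad partners and co-activators, 12 genes were tested, none was called and 1 was higher at an unadjusted p under 0.05. Fos, a subunit of the AP-1 factor that cooperates with Smads, had signals of 2334 and 2499.7 in positive and 1674.5 and 936 in negative cells. Its log2 difference was 0.94 ± 0.25 (SE; limma adjusted p 0.959), and negative replicate 2 stood furthest from the rest. Without negative replicate 1 its adjusted p was 0.0555, the lowest over its alternatives, and without negative replicate 2 the log2 difference was 0.52. Wwtr1, the co-activator TAZ, had -0.18 ± 0.18 (SE).

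Modulators of the receptors and Smads, a list that mixes ubiquitin ligases, deubiquitinases, a phosphatase and Smad co-repressors, numbered 15 tested genes, of which 8 lay above 0 and 7 below, with none called and none at an unadjusted p under 0.05. Most of them are known to restrain the pathway, whereas Uchl5, Usp15, Usp9x and Rnf111 are known to favour it. The brightest were Uchl5, a deubiquitinase that protects the receptor, at -0.068, and the Smad co-repressor Skil, at -0.30. Second probe sets gave -0.089 for Uchl5 and 0.14 for Skil.

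The list for the activin, BMP and GDF branch holds ligands, inhibitors, receptors and Smads, and also the protease Bmp1. It had 13 of 19 tested genes below 0, where 5468 of 11956 genes were below 0 in all. None of the 19 was called, with 1 higher and 1 lower at an unadjusted p under 0.05. Bmp7, a bone morphogenetic protein that opposes TGF-beta in several epithelia, had signals of 70.3 and 66.4 in positive and 131 and 202 in negative cells. The groups were separate, and the log2 difference was -1.09 ± 0.28 (SE), or 2.13-fold higher in negative cells, without passing the threshold (limma, unadjusted p 0.00305, adjusted p 0.947). All 3 Bmp7 probe sets had separate groups on the same side, the other 2 at -2.21 and -0.72, where 33.2% of all tested probe sets had separate groups. The value of -2.21 rests on positive signals of 35.4 and 1.88, the second below the filter level. The 3 probe sets read the same 4 arrays. The brightest Bmp7 probe set did not pass the threshold in any alternative. Inhba, the subunit of activin A, had 611 and 656 against 483 and 302, a log2 difference of 0.70 ± 0.26 (SE; adjusted p 0.959). The BMP receptors Bmpr1a and Bmpr2, the brightest of the branch, had -0.39 and -0.17. The 4 other tested Bmpr1a probe sets lay on both sides of 0, from -0.45 to 0.077, and those of Bmpr2 gave -0.30 and -0.50.

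Among genes known to respond to TGF-beta, 17 of 26 tested lay above 0 with a median of 0.15, beside 54.3% and 0.028 over all genes. The list was not divided into genes that TGF-beta raises and genes that it lowers, so these figures do not measure pathway output. Postn, the matrix protein periostin, was called. Its signals were 892 and 1136 in positive and 163 and 102 in negative cells, and its log2 difference was 2.81 ± 0.27 (SE), or 7.03-fold, with a limma adjusted p of 0.0081. Postn lost the call with no scaling between arrays (adjusted p 0.137), with no filter (0.187), without the intensity trend (0.264) and without positive replicate 2 (0.112). The 6 other genes at an unadjusted p under 0.05, named after their values were seen, pointed both ways. Connective tissue growth factor, Ccn2, had a log2 difference of 0.42, fibronectin, Fn1, 0.70 and the transcription factor Bhlhe40 0.53. The epithelial repressor Zeb2 had -0.69, vimentin, Vim, -0.39 and the chromatin factor Hmga2 -0.48. Their adjusted p values were 0.935 to 0.959. A second Fn1 probe set gave 0.15 with overlapping groups, and 1 of the 3 other Hmga2 probe sets gave -0.042, while the other probe sets of Zeb2 and Vim had the same sign. These genes also answer to other signals.

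**Figure D3:**
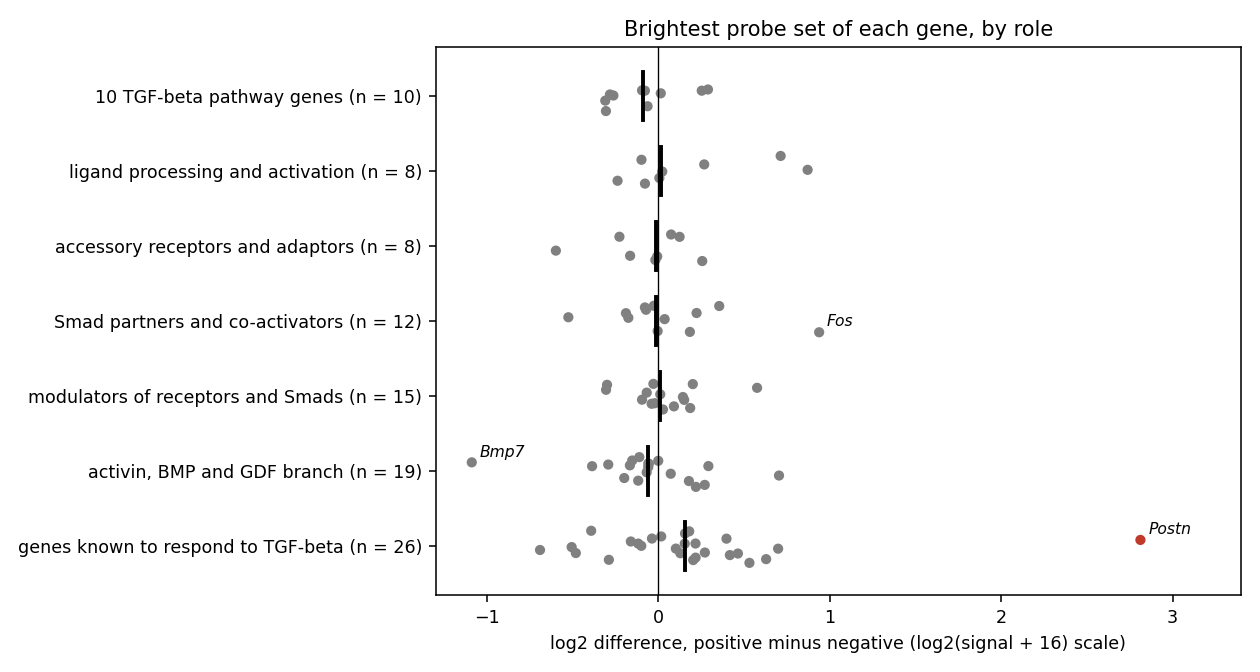
Log2 difference, positive minus negative, of the brightest tested probe set of each gene, by list; black bars are list medians and n is the number of tested genes. Postn, in red, is the one gene past the adjusted threshold, and the 10 core genes lie between -0.31 and 0.29.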

How the data were processed

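The deposited table gave 1 linear intensity per probe set and array, from 0.1 to 22695.6. GCOS is named in the submitters' processing notes without a role, while nothing in the sources used here states the summary method, background correction or scaling. Gene symbols are those of the 2016 platform annotation, and gene positions come from the RefSeq table of GRCm38.p6. No probe positions were used.

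Trimmed means (2%) of the arrays differed by more than 5%, so intensities were quantile normalised, transformed as log2(value + 16), freed of 64 control probe sets and filtered at the 40th percentile of the mean over all arrays, a signal of 19.4, which left 27022 probe sets. Fold changes on this scale understate those of dim probe sets. Groups came from the sample titles and were compared with a two-sided moderated test in limma 3.58.1 (R 4.3.3), using an intensity-trended prior and Benjamini-Hochberg adjustment, each probe set on its own, without a replicate block. The procedure was tested on simulated data whose planted differences were larger than any seen in the core genes. That test did not cover differences of their size. The 2 arrays per group limit the precision. Promoter windows are from RefSeq.

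The genes, lists and tests were chosen with earlier results of these data known. Named genes were the 10 core genes, Esrp1 and Cd44; in each list the called genes or, where none was called, the brightest 2 and up to 2 with separate groups and an unadjusted p under 0.05; and the 3 closest in profile to the core probe set with the lowest p. Alternatives covered scaling, pseudocount, filter, probe set choice, variance prior, replicate block and leaving out each array.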

Additional observations from a re-analysis of the deposited data

How the results depend on the processing

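No probe set of the 10 core genes was called in any of the 16 alternatives, with 10 to 24 of their probe sets tested. The count over all probe sets was 9 and moved to 17 with arrays centred on their medians, 4 with no scaling, 0 with no filter (2109 at an unadjusted p under 0.05), 5 without probe sets whose identifiers end in _x_at, _s_at or _a_at, 2 without the intensity trend and 21 with the replicate number as a block, and ran from 1 to 28 as single arrays were left out, where the lone array of a group is assumed to vary like the others. The count of called pathway genes, 1, was 0 with no scaling, no filter or no intensity trend, and 0 to 1 with single arrays left out. The same-numbered arrays deviated together with a correlation of 0.093 and the labels give no shared day, so the numbers were not taken to pair the samples; the block called none of the 10 core genes.

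Of 328 values for the 22 core probe sets, 38 had the other sign, in 17 probe sets. With no scaling the median of all probe sets shifted to -0.17 and that of the core probe sets to -0.26, and with median centring to -0.090 and -0.18. Most of the sign changes came with single arrays left out, where the median of all probe sets ran from -0.015 to 0.0059. With no scaling Tgfbr1 (1420893_a_at) had -0.17, Tgfbr2 (1426397_at) -0.17, Smad3 (1450471_at) -0.18 and Smad4 (1422485_at) -0.18; with median centring they had -0.087, -0.091, -0.10 and -0.094, and with one trimmed mean that Smad3 probe set had -0.0057 and Strap 0.012. With single arrays left out, Tgfb1 (1445360_at) ran from -0.12 to 0.62, Tgfb2 from -0.62 to 0.0043 (1450922_a_at), -0.053 to 0.035 (1450923_at) and -0.65 to 0.076 (1423250_a_at), and Tgfb3 from -0.58 to 0.39. Tgfbr1 ran from -0.26 to 0.17 (1420894_at) and -0.062 to 0.15 (1420893_a_at), and Tgfbr2 from -0.032 to 0.060 (1426397_at) and -0.27 to 0.22 (1425444_a_at). Smad3 ran from -0.22 to 0.059 (1454960_at), -0.28 to 0.19 (1450472_s_at) and -0.033 to 0.11 (1450471_at), and Smad4 from -0.34 to 0.16 (1422486_a_at) and -0.030 to 0.057 (1422485_at). Smad6 ran from -0.61 to 0.046 and Smad7 from -0.31 to 0.18 (1423389_at) and -0.63 to 0.038 (1443771_x_at). Strap ran from -0.023 to 0.010 and Uchl5 from -0.18 to 0.043. The cause was not tested. Both probe sets of Smad2 and the brightest of Tgfb1, Tgfbr1 and Smad4 kept their sign in every alternative that tested them.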
